A study of Mus musculus with 8 samples.

Results

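Of the 53242 genes in the deposited tables, 8 are described here, namely Ung, Apex1, Msh6, Trp53bp1, Rif1, Mad2l2, Xrcc5 and Xrcc6. They were chosen by name as genes whose products act in class switch recombination and somatic hypermutation, and all 8 passed the filter on low counts that left 14218 genes for testing. RNA was sequenced from splenic B cells of C57BL/6 mice aged 8 to 12 weeks, each library from 1 mouse, after 24 h of culture on irradiated CD40LB cells (fibroblast feeders that supply CD40 ligand and BAFF) with 40 ng/ml IL4. Control mice were Eif4a1 +/+ with Cd23-cre and 4A1 KO mice were Eif4a1 fl/fl with Cd23-cre, so that both genotypes carried the Cre, which acts in B cells from the immature splenic stage onwards and leaves Eif4a1 intact in other cells. Each genotype had 4 libraries, numbered 1 to 4, of which 1 and 3 came from males, 2 and 4 from females, 1 and 2 from batch A and 3 and 4 from batch B. Replicate 1 of both genotypes was excluded from the statistical comparison because the study excluded it for low viability. Means and fold changes therefore refer to replicates 2 to 4 (n = 3 per genotype), while the values of all 8 libraries are shown.

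In activated B cells cytosine is deaminated to uracil in immunoglobulin genes. Uracil is then removed by the glycosylase encoded by Ung, or the mismatch is recognised by a complex that contains the Msh6 product, and processing of either lesion can leave point mutations or DNA breaks. During class switching the breaks in the switch regions are shielded from resection by the products of Trp53bp1, Rif1 and Mad2l2 and are joined by the end joining pathway, which starts with the binding of Ku, the dimer of the Xrcc5 and Xrcc6 products, to the ends.

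After 24 h, 3 genes were lower in 4A1 KO cells. Msh6 mRNA fell by 43.9%, Ung mRNA fell by 36.8% and Xrcc6 mRNA fell by 36.6%. Apex1 fell by 20.8%, which passed the test but not the threshold on fold change. The adjusted p of Trp53bp1, Mad2l2 and Xrcc5 missed the threshold, and Rif1 was higher by 22.8%, which passed the test with batch and sex in the model but not without them or without replicate 2. Thus 3 of the 8 genes were called lower and 0 higher at an adjusted p under 0.05 (edgeR's quasi-likelihood test) with an absolute log2 fold change above 0.5, against 25.3% of all 14218 tested genes called in either direction, 13.7% lower and 11.6% higher. With the adjusted p alone, 4 of the 8 were lower and 1 was higher, where 53% of all tested genes passed, 26.7% lower and 26.3% higher. The members were selected with earlier results of these data known, so these shares describe them and are no test of the group.

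The start sites of the 3 genes called lower, and of Xrcc5, whose product is the partner of the Xrcc6 product, are shown because the start site is where a shared sequence could be looked for. Each run holds 250 bases before and 50 bases from the start of the canonical transcript in GENCODE M39, read 5′ to 3′ on the plus strand of GRCm39. Capitals mark matches to the letters of an E2F site (TTTCCCGC, TTTGCCGC, TTTCGCGC or TTTGGCGC) or of an NF-Y site (CCAAT) on either strand, so that a reverse match reads GCGGGAAA or ATTGG. The windows are chr5:114268197-114268496 for Ung, chr17:88282181-88282480 for Msh6, chr15:81900320-81900619 for Xrcc6 and chr1:72346329-72346628 for Xrcc5.
Ung: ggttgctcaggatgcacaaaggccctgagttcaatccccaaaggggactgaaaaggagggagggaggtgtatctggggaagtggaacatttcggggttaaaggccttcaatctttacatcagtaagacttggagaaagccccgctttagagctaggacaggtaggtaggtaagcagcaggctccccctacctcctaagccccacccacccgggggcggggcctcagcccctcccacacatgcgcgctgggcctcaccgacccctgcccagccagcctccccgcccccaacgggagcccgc
Msh6: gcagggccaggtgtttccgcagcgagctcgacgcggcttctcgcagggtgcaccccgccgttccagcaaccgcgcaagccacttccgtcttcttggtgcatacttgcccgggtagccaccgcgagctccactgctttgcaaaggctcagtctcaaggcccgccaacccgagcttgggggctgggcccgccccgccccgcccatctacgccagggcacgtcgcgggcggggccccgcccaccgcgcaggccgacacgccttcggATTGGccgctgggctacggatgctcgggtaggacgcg
Xrcc6: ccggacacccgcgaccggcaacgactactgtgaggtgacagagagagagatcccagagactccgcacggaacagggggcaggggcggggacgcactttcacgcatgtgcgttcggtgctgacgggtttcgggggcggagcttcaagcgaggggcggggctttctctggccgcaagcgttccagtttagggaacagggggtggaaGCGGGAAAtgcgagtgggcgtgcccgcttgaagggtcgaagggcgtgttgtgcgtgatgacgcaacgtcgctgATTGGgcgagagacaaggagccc
Xrcc5: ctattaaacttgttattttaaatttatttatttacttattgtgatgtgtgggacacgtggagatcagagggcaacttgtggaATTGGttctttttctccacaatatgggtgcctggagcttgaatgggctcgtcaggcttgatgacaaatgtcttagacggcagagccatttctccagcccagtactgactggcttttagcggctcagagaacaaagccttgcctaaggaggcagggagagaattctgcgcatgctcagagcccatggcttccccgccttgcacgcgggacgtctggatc
Of the 3 genes called lower, Xrcc6 held an E2F match, 46 bases before its start site, and Ung and Msh6 held none. This was the only E2F match among the 8 promoters, and 2.82% of the 21770 promoters searched had one. NF-Y letters were present in 5 of the 8 (Apex1, Msh6, Rif1, Xrcc5 and Xrcc6), against 39.9% of all promoters, and they occurred in genes of both kinds, called and not called. The GC content of the windows was 61.7% for Ung, 71% for Msh6, 64.3% for Xrcc6 and 48.3% for Xrcc5, where the median promoter had 54.3%. These matches are runs of letters and not evidence of binding.

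The first step after deamination is uracil removal, and Ung encodes the main nuclear and mitochondrial uracil DNA glycosylase. The gene lies at chr5:114268417-114277384 on the plus strand, with 7 exons in its canonical transcript and 306 residues in its protein. Ung stood at 162, 175, 181 and 178 CPM (reads scaled to a common library size with edgeR's TMM method) in controls 1 to 4, and at 94.8, 108, 105 and 125 CPM in 4A1 KO replicates 1 to 4. The genotypes were separated by a wide gap, and the controls of replicates 2 to 4 lay close together with a coefficient of variation of 1.63%. The mean fell from 178 ± 2.89 CPM in control to 113 ± 10.7 CPM (SD, n = 3), with a log2 fold change of -0.66 (SE 0.06, 95% interval -0.80 to -0.52, edgeR adjusted p = 4.86e-05). In the TPM that the authors computed separately, which are scaled by transcript length, the level fell from 178 ± 14.2 to 105 ± 12.1 TPM (limma log2 difference -0.75, adjusted p = 0.00625).

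Apex1 encodes the endonuclease that cuts the strand at the site left by uracil removal. It lies at chr14:51162177-51164642 on the plus strand, with 5 exons and 317 residues, and was the most abundant of the 8 genes in either genotype when compared as TPM. Apex1 stood at 342, 330, 354 and 313 CPM in controls 1 to 4, against 287, 273, 258 and 257 CPM in 4A1 KO replicates 1 to 4. The genotypes did not overlap, although the distance between them was smaller than for Ung. The log2 fold change was -0.34 (SE 0.05, interval -0.45 to -0.22, edgeR adjusted p = 0.000656). Its TPM fell from 417 ± 33.5 to 315 ± 9.38 (limma log2 difference -0.40, adjusted p = 0.0162), and without replicate 3 this TPM difference was -0.31 with an adjusted p of 0.0643.

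Msh6 encodes a mismatch repair protein that recognises the mismatch of uracil and guanine. It lies at chr17:88282418-88298320 on the plus strand, with 10 exons and 1358 residues. The CPM of Msh6 were 128, 160, 169 and 185 in controls 1 to 4, against 69.3, 86.3, 91.2 and 112 in 4A1 KO replicates 1 to 4. Replicate 1 was the lowest library of each genotype and replicate 4 the highest, and still no 4A1 KO library reached the lowest control. The mean went from 171 ± 12.2 to 96.6 ± 13.8 CPM (SD, n = 3), and the log2 fold change of -0.83 was the largest of the 8 in counts (SE 0.06, interval -0.96 to -0.71, edgeR adjusted p = 1.53e-05). In TPM the level went from 77 ± 6.85 to 43.7 ± 7.21 (limma log2 difference -0.81, adjusted p = 0.00386). A processed pseudogene, Gm11855, resembles the Msh6 transcript at 94.1% identity over 1872 bases and had 0 counts in every library.

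Some of the genes also differed between batches or sexes, which the model takes into account. Over the 8 libraries Msh6 was higher in batch B than in batch A by 0.33 on the log2 scale (edgeR adjusted p = 0.00161) and lower in males than in females, with a male minus female difference of -0.26 (adjusted p = 0.0195). Xrcc6 was higher in batch B by 0.22 (adjusted p = 0.014) and Trp53bp1 by 0.17 (adjusted p = 0.0292). For Ung the batch difference was 0.12 (adjusted p = 0.113) and the sex difference -0.12 (adjusted p = 0.186). Of all genes, 28.2% passed this test for batch and 6.88% for sex.

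**Figure D1:**
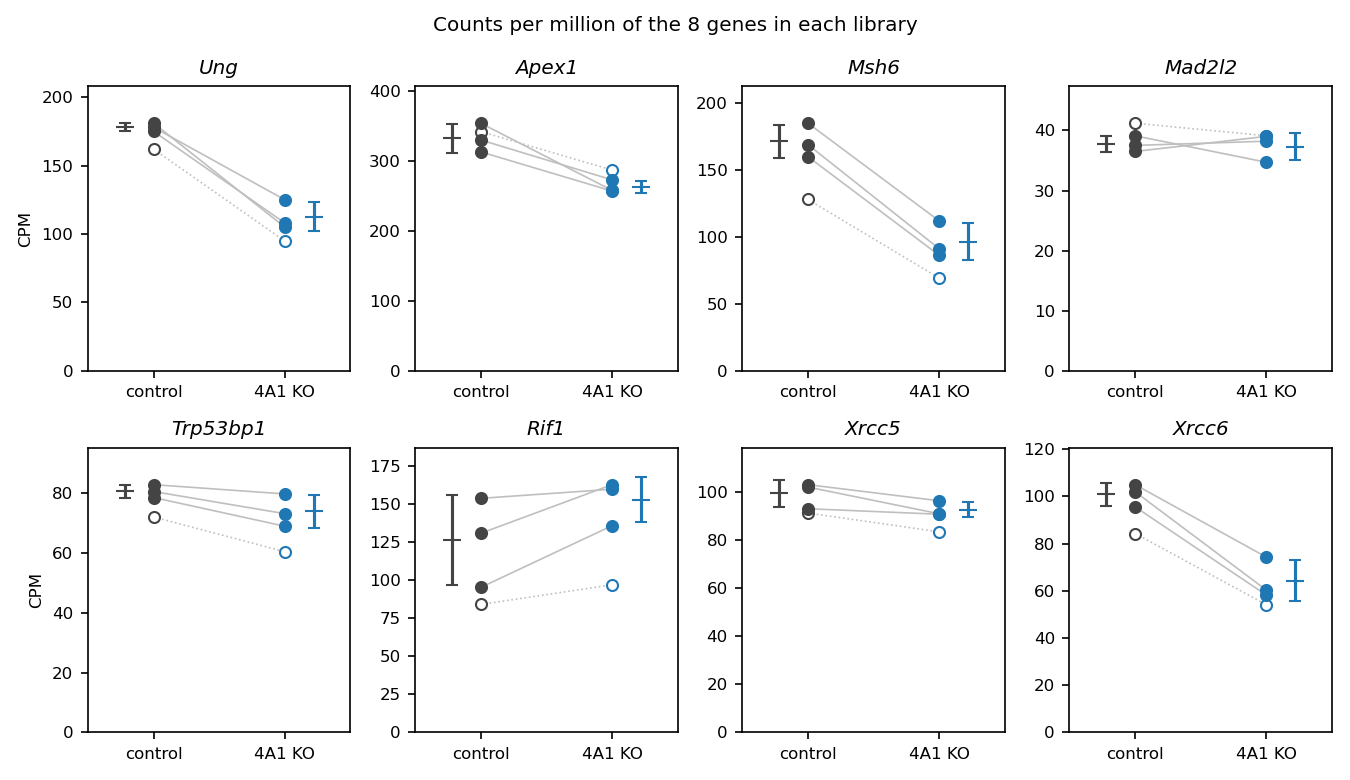
CPM of each of the 8 genes (vertical axis, from 0) in the control and 4A1 KO libraries. Points are single libraries, lines join libraries of the same replicate number, open points and dotted lines are replicate 1, and the bars beside the points are the mean ± SD of replicates 2 to 4. For Ung, Apex1, Msh6 and Xrcc6 every 4A1 KO point lies below every control point, while for Mad2l2, Trp53bp1, Rif1 and Xrcc5 the genotypes overlap.

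None of the 3 genes of end protection was called, where 25.3% of all tested genes were. Trp53bp1 encodes the chromatin reader that assembles at breaks and recruits the RIF1 protein, and it lies at chr2:121023762-121120840 on the minus strand with 28 exons and 1969 residues. Its CPM were 72, 78.5, 80.5 and 82.8 in controls 1 to 4, against 60.4, 68.9, 73.1 and 79.7 in 4A1 KO replicates 1 to 4. Within each of the 4 pairs of the same number the 4A1 KO library was lower, but the ranges overlapped, since 4A1 KO replicate 4 exceeded controls 1 and 2. The log2 fold change was -0.13 (SE 0.06, interval -0.25 to 0, edgeR adjusted p = 0.082). The upper end of this interval rounds to 0 and lay just below it, at a change of -0.129%. TPM of 20 ± 1.24 in control and 18.6 ± 1.93 in 4A1 KO gave a limma log2 difference of -0.10 (adjusted p = 0.22). With all 8 libraries the log2 fold change of Trp53bp1 was -0.16 with an adjusted p of 0.0189, and without replicate 4 it was -0.17 with an adjusted p of 0.044, so the side of the threshold depended on the libraries used.

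Rif1 encodes the effector that acts downstream of the Trp53bp1 product, and it lies at chr2:51961491-52017020 on the plus strand with 36 exons and 2426 residues. Its CPM were 84.2, 95.4, 131 and 154 in controls 1 to 4, against 97.1, 136, 163 and 160 in 4A1 KO replicates 1 to 4. Within each genotype the libraries of batch A were lower than those of batch B, and the genotypes overlapped widely, but the 4A1 KO library was the higher one in each of the 4 pairs. The pair differences on the log2 scale were 0.20, 0.51, 0.32 and 0.06 for replicates 1 to 4. Rif1 had the largest batch difference of the 8 genes, at 0.56 (B minus A, edgeR adjusted p = 0.000882), and the largest coefficient of variation in control, at 23.2%.

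With batch and sex in the model, which in the 6 libraries equals pairing the libraries by replicate number, the log2 fold change of Rif1 was 0.30 (SE 0.07, interval 0.13 to 0.47, edgeR adjusted p = 0.00927). Without that replicate block the adjusted p was 0.209. Leaving out replicate 2 reduced the log2 fold change to 0.19 (adjusted p = 0.0894) and leaving out replicate 4 raised it to 0.41 (adjusted p = 5.35e-05). In TPM Rif1 was at 29.7 ± 7.62 in control and 36 ± 3.82 in 4A1 KO (limma log2 difference 0.30, adjusted p = 0.0742).

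Mad2l2 encodes a subunit of shieldin, the complex that blocks end resection, and also of DNA polymerase zeta, the translesion polymerase whose catalytic subunit is encoded by Rev3l. It lies at chr4:148214560-148230434 on the plus strand with 8 exons and 211 residues. The CPM of Mad2l2 were 41.2, 36.5, 39.1 and 37.5 in controls 1 to 4, against 39.1, 39, 34.7 and 38.2 in 4A1 KO replicates 1 to 4. It was lower in 4A1 KO in replicates 1 and 3 and higher in replicates 2 and 4, with the genotypes interleaved. The log2 fold change was -0.02 (SE 0.07, edgeR adjusted p = 0.854), and its 95% interval of -0.18 to 0.14 leaves room for a small difference in either direction. The sign turned under upper quartile scaling and without replicate 3.

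Of the genes for the 2 subunits of Ku, Xrcc6 was called lower and Xrcc5 was not. Xrcc6 lies at chr15:81871931-81924291 on the plus strand, with 13 exons in its canonical transcript, which starts downstream of the first annotated base of the gene, and 608 residues, and Xrcc5 at chr1:72346532-72434112 on the plus strand, with 21 exons and 732 residues. The CPM of Xrcc6 were 84.3, 95.6, 102 and 105 in controls 1 to 4, against 54.1, 58.2, 60.3 and 74.3 in 4A1 KO replicates 1 to 4. No library of 4A1 KO reached the lowest control, and the mean fell from 101 ± 4.76 to 64.3 ± 8.76 CPM (SD, n = 3). The log2 fold change of Xrcc6 was -0.66 (SE 0.07, interval -0.81 to -0.51, edgeR adjusted p = 6.44e-05), and its TPM fell from 90.1 ± 4.7 to 57.7 ± 8.16 (limma log2 difference -0.64, adjusted p = 0.00521).

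Xrcc5 stood at 91.2, 103, 102 and 93 CPM in controls 1 to 4, against 83.4, 96.3, 90.9 and 90.7 CPM in 4A1 KO replicates 1 to 4. Each 4A1 KO library was slightly below the control of its number, and the ranges overlapped. Its log2 fold change was -0.10 (SE 0.05, interval -0.22 to 0.02, edgeR adjusted p = 0.148), and it was -0.06 without replicate 3 (adjusted p = 0.552). With all 8 libraries the adjusted p was 0.134, and it was 0.0491 when the replicate block, added after the data had been seen, was used with them. Xrcc5 went from 73.2 ± 2.53 to 68 ± 1.31 TPM (limma log2 difference -0.11, adjusted p = 0.207).

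**Figure D2:**
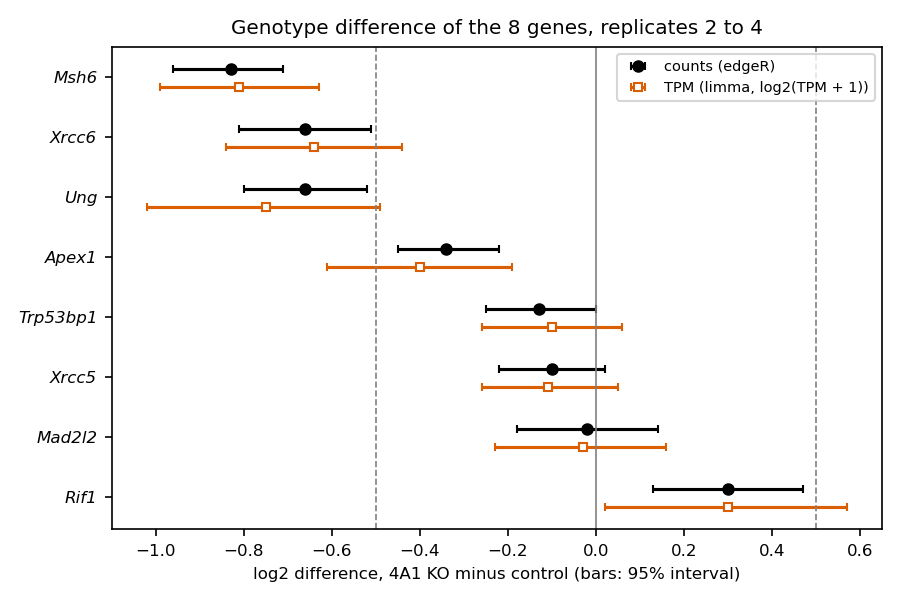
Log2 difference between 4A1 KO and control (horizontal axis) for each of the 8 genes in replicates 2 to 4, with 95% intervals. Filled circles are the edgeR fit of counts, open squares the limma fit of log2(TPM + 1), and dashed lines mark a log2 difference of 0.5 in either direction. The estimates of Msh6, Xrcc6 and Ung lie beyond the lower dashed line in both quantifications, from -0.83 to -0.64, and those of the other 5 genes lie between the dashed lines.

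Across the 8 libraries, the genotypes did not overlap in CPM for 4 of the 8 genes (Ung, Apex1, Msh6 and Xrcc6), each with 4A1 KO below control. Of all genes, 36.7% showed such a separation, 19.2% with 4A1 KO below control and 17.6% with 4A1 KO above. For each of these 4 genes the exact two-sided permutation test of 4 libraries against 4 gave p = 0.0286, which is the smallest value that this design allows. The corresponding exact permutation p was 0.143 for Xrcc5, 0.171 for Trp53bp1, 0.257 for Rif1 and 0.571 for Mad2l2. With 3 against 3 libraries this test cannot go below 0.1. In TPM, 4 of the 8 genes passed limma's test as lower and 0 as higher, where 47.2% of all genes passed, 24.9% lower and 22.3% higher.

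Within pairs of the same replicate number, 6 of the 8 genes were lower in 4A1 KO in all 4 pairs, 1 (Rif1) was higher in all 4, and Mad2l2 was mixed. Lower values in all 4 pairs were found for 33.4% of all genes and higher values for 33.8%. The smallest differences of Ung, Msh6 and Xrcc6 were those of replicate 4, at -0.51, -0.71 and -0.49 on the log2 scale, and for each of these genes the other pairs lay between -0.89 and -0.64. The genotype difference was also compared between sexes and between batches, as an interaction term in the 8 libraries, and 0 of the 16 tests on the 8 genes passed edgeR's test. The smallest unadjusted p among them was 0.0842, for Ung and sex. Across all genes 0 passed for sex (405 at an unadjusted p under 0.05, and 1 with DESeq2) and 1 passed for batch (610 at an unadjusted p under 0.05, and 6 with DESeq2).

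The order of the 8 genes by level per transcript length differed between the genotypes. In control the mean TPM was highest for Apex1, followed by Ung, Xrcc6, Msh6, Xrcc5, Mad2l2, Rif1 and Trp53bp1, and among neighbours only Msh6 and Xrcc5 overlapped in their libraries of replicates 2 to 4. In 4A1 KO the order was Apex1, Ung, Xrcc5, Mad2l2, Xrcc6, Msh6, Rif1 and Trp53bp1. There, each pair of neighbours from Xrcc5 down to Rif1 overlapped, although Xrcc5 and Mad2l2 lay wholly above Msh6 and Rif1, and Xrcc6 wholly above Rif1. Xrcc6 was above Xrcc5 in control (90.1 against 73.2 TPM) and below it in 4A1 KO (57.7 against 68 TPM).

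The balance between genes whose products work together was examined as a ratio within each library, for 5 ratios chosen after the values had been seen, of which 4 are reported here. The TPM ratio of Xrcc6 to Xrcc5 was 1.12, 1.13, 1.23 and 1.33 in controls 1 to 4, against 0.708, 0.742, 0.82 and 0.985 in 4A1 KO replicates 1 to 4. All controls were above 1 and all 4A1 KO libraries below it. From counts, the difference of the log2 ratio, 4A1 KO minus control, was -0.55, with single pairs from -0.62 to -0.46 (exact two-sided permutation p = 0.0286, Benjamini-Hochberg adjusted over the 5 ratios 0.143). With 5 ratios and 4 libraries per genotype the adjusted value cannot pass 0.05 for a single ratio.

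For Ung to Apex1 the difference of the log2 ratio was -0.37, with pairs from -0.52 to -0.22 (exact permutation p = 0.0571, adjusted 0.143). That of Rif1 to Trp53bp1 was 0.43, with pairs from 0.12 to 0.70 (exact permutation p = 0.0857, adjusted 0.143). That of Rev3l to Mad2l2 was 0.31, with pairs from 0.10 to 0.66 (exact permutation p = 0.229, adjusted 0.229). None of the 4 reported ratios passed after adjustment, and each had 1 direction in all 4 pairs, which this unpaired test does not use.

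**Figure D3:**
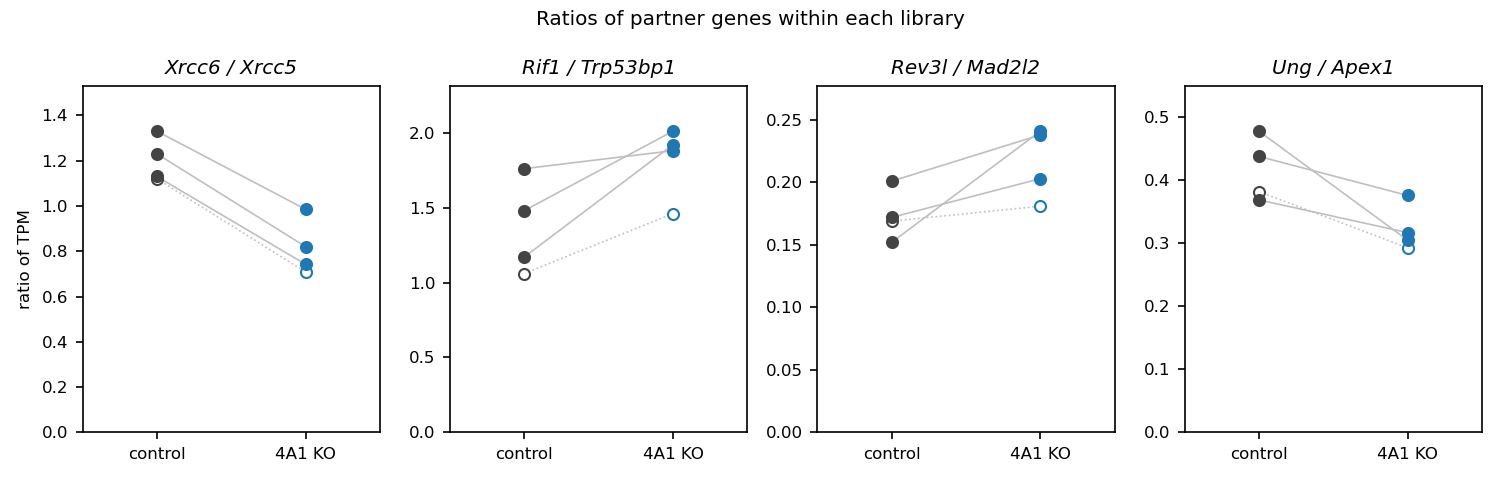
Ratio of the TPM of 2 genes (vertical axis, from 0) in each control and 4A1 KO library, for 4 ratios. Points are single libraries, lines join libraries of the same replicate number, and open points with dotted lines are replicate 1. The ratio of Xrcc6 to Xrcc5 lies between 1.12 and 1.33 in control and between 0.708 and 0.985 in 4A1 KO, whereas the ratio of Ung to Apex1 overlaps between the genotypes.

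The other genes of the same processes were taken from 6 lists, which hold 67 genes with the 8 members and 59 without them. Of the 59, 14 were called lower and 1 higher (median log2 fold change -0.25, where the median of all 14218 tested genes was 0.01 and 13.7% of them were called lower and 11.6% higher). With the adjusted p alone, 29 were lower, 8 were higher and 22 did not pass, against 26.7% lower and 26.3% higher among all tested genes. The lists were written with earlier results of these data known and were not tested as sets.

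Of the 12 genes of uracil processing and base excision, 4 were called lower and 1 higher (13.7% and 11.6% of all tested genes), with a median of -0.35. Fen1, which encodes the nuclease that trims displaced strands, stood at 201, 252, 257 and 286 CPM in controls 1 to 4, against 106, 112, 116 and 149 CPM in 4A1 KO replicates 1 to 4 (log2 fold change -1.09, edgeR adjusted p = 9.59e-06). Lig1, the replicative DNA ligase, fell by 1.10 on the log2 scale (adjusted p = 2.64e-05), and Mbd4, a glycosylase for mismatched thymine and uracil, by 0.71 (adjusted p = 0.00127), a call that was lost with edgeR's glmTreat. Parp1, which senses strand breaks, fell by 0.37 (adjusted p = 0.000273) and was not called for its size.

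Smug1, a uracil glycosylase like Ung, was the only gene of the 6 lists that was called higher, and it was not called with glmTreat, which tests against the fold threshold itself. Its CPM were 3.5, 2, 2.82 and 3.26 in controls 1 to 4, against 5.58, 4.41, 6.08 and 3.97 in 4A1 KO replicates 1 to 4. No control reached the lowest 4A1 KO library, at counts of 81 to 246 reads per library (log2 fold change 0.83, SE 0.19, edgeR adjusted p = 0.00497). Leaving out a replicate gave log2 fold changes from 0.69 to 1.12, the highest without replicate 4. The level of Smug1 was 1.39 ± 0.303 TPM in control and 2.47 ± 0.461 TPM in 4A1 KO, far below the 178 and 105 TPM of Ung.

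Mismatch repair had 3 of its 7 listed genes called lower, where 13.7% of all tested genes were, and 0 higher (median -0.40), namely Msh6, Exo1 and Pms1. Exo1, the exonuclease that widens the gap at a mismatch, stood at 35.9, 52.6, 56.4 and 68.6 CPM in controls 1 to 4, against 8.6, 14.6, 15 and 27.3 CPM in 4A1 KO replicates 1 to 4. The genotypes were far apart, with a log2 fold change of -1.69 (edgeR adjusted p = 1.51e-05). Pms1, of the family of MutL subunits, fell by 0.55 (adjusted p = 0.000595), and without replicate 3 its change was within the threshold on size. Pms2, another MutL subunit, fell by 0.40 (adjusted p = 0.000659) and was not called for its size.

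Among the 8 genes of translesion synthesis, 2, Polh and Polq, were called lower, against 13.7% of all tested genes, and 0 higher (median -0.03). Polh encodes polymerase eta, which makes mutations at A and T bases during hypermutation, and it fell by 1.12 on the log2 scale (edgeR adjusted p = 5.28e-05), although its libraries overlapped when replicate 1 was included. Polq, a polymerase of alternative end joining, fell by 1.47 (adjusted p = 1.53e-05). Rev3l rose by 0.37 (adjusted p = 0.000985) without reaching the threshold on size.

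Deamination and its targeting had 3 of 9 listed genes called lower, against 13.7% of all tested genes, and 0 higher (median 0.01), which were the genes for the 3 subunits of replication protein A, the complex that binds single-stranded DNA. Rpa2 fell by 1.16 (edgeR adjusted p = 1.65e-05), Rpa1 by 0.83 (adjusted p = 3.49e-05) and Rpa3 by 0.52 (adjusted p = 0.000812), and Rpa3 was not called without replicate 2 or without replicate 4. With the adjusted p alone, 4 of the 9 genes were lower and 3 higher, against 26.7% and 26.3% of all tested genes.

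Of the 21 genes of break signalling and end protection, 3 were called lower and 0 higher (median -0.33), a number of lower calls close to the 13.7% of all tested genes. With the adjusted p alone 11 were lower and 3 higher, against 26.7% and 26.3% of all tested genes. Trip13, an ATPase that remodels the Mad2l2 product, fell by 1.13 on the log2 scale (edgeR adjusted p = 1.19e-05), from 47.6, 69.9, 65.4 and 81.1 CPM in controls 1 to 4 to 21.6, 30.3, 28.1 and 41.1 CPM in 4A1 KO. Stn1, part of the complex that fills in shielded ends, fell by 1.00 (adjusted p = 0.000206). Mre11a, the nuclease of the complex that senses breaks, fell by 0.41 (adjusted p = 0.000316) and was not called for its size. Pagr1a fell by 0.80 in counts (adjusted p = 0.000353), but its limma log2 difference in TPM was -0.14 (adjusted p = 0.886). Of the shieldin genes apart from Mad2l2, Shld1 was at 0.46 (adjusted p = 0.0283), Shld2 at 0.01 and Shld3 at 0.13 on the log2 fold change scale, and none was called. Shld1 was called higher, however, with all 8 libraries, with or without the replicate block, and without replicate 3, at log2 fold changes of up to 0.61.

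End joining had 2 of 11 genes called lower, Xrcc6 and Poll, and 0 higher (median -0.09), which is also near the 13.7% of all tested genes. Poll, a gap-filling polymerase, fell by 0.60 (edgeR adjusted p = 0.000782) and was not called without replicate 3. Prkdc, the kinase that Ku recruits, fell by 0.29 (adjusted p = 0.00303) and was not called for its size. Cyren, a regulator of end joining that binds Ku, had a log2 fold change of -0.38 that missed the threshold (adjusted p = 0.0574), was -0.20 without replicate 3 and reached -0.51 and a call without replicate 4. The ligase Lig4 had a log2 fold change of 0.22, its partner Xrcc4 of -0.09 and Nhej1 of 0.05, and none of these was called.

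**Figure D4:**
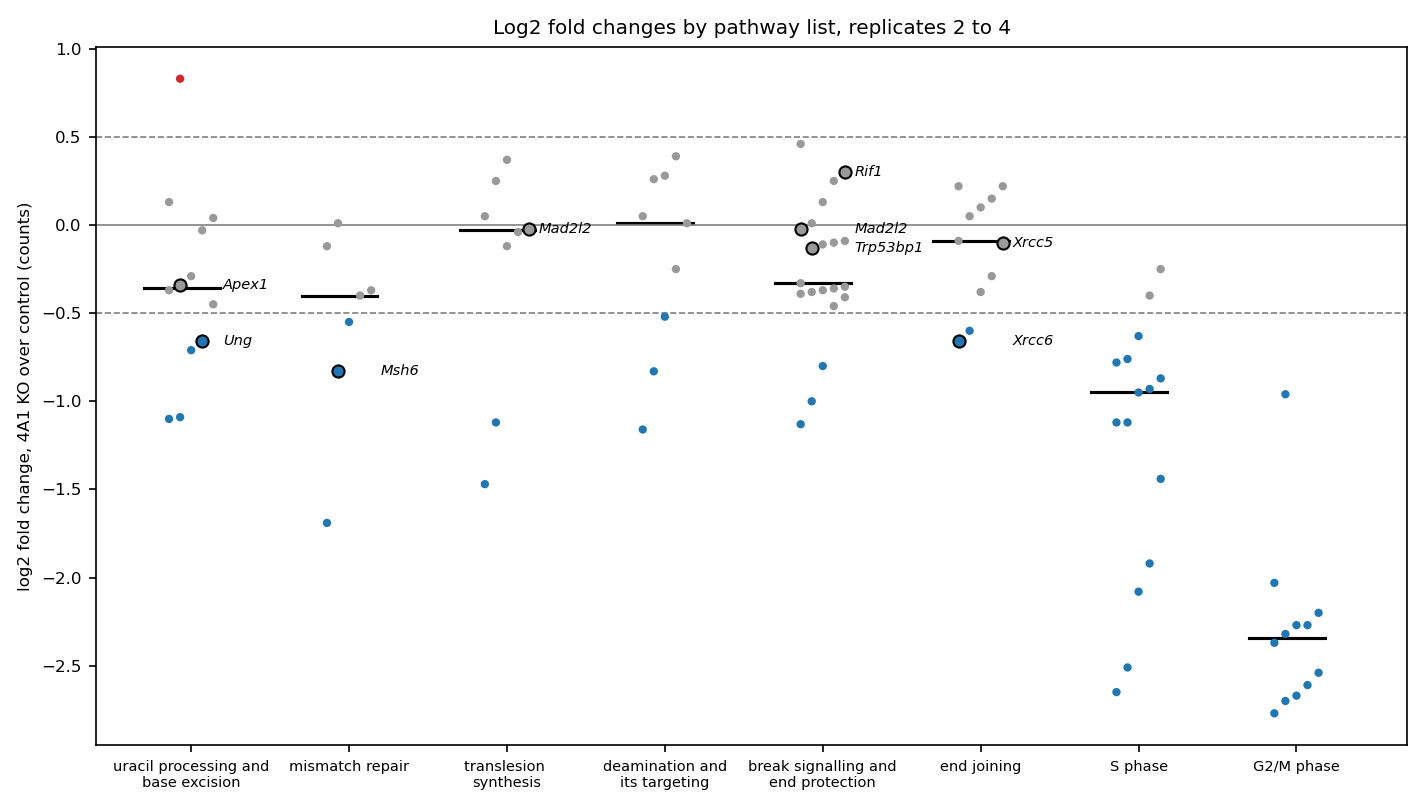
Log2 fold change of 4A1 KO over control (vertical axis) for each tested gene of the 6 lists of repair genes and of the S phase and G2/M lists, from counts of replicates 2 to 4. Blue points were called lower, red higher and grey not called, ringed and named points are the 8 genes described here (Mad2l2 is in both translesion synthesis and end protection), black bars are list medians and dashed lines mark 0.5 in either direction. List medians lie between -0.40 and 0.01 for the repair lists, at -0.95 for S phase and at -2.35 for G2/M.

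Genes of the cell cycle moved with these differences. Where 13.7% of all tested genes were called lower and 11.6% higher, 13 of 15 genes of S phase were called lower and 0 higher (median log2 fold change -0.95). Of 12 genes of G2/M phase all 12 were called lower (median -2.35). Those with the smallest adjusted p were Slbp, a histone mRNA binding protein (log2 fold change -0.93), and Mcm4, of the replicative helicase (-0.87), for S phase, and cyclin gene Ccnb1 (-2.27) and topoisomerase gene Top2a (-2.03) for G2/M. The summed levels of these lists did not overlap, at 3370 to 4610 TPM in the 4 controls and 1610 to 2800 TPM in the 4A1 KO libraries for S phase, and at 334 to 839 and 65.2 to 288 TPM for G2/M. In both genotypes replicate 4 had the highest sum and replicate 1 the lowest. Msh6, Xrcc6 and Trp53bp1, the last of which was not called, had the same extremes in CPM, while Ung, which was called, did not in control. In bulk RNA a smaller share of cells in S phase and less of a transcript per cell cannot be told apart, and the part of the cell cycle genes in the differences of Ung, Msh6 and Xrcc6 was not tested.

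The genes whose CPM over the 8 libraries ran closest to each called member were found by the root mean square difference of log2 CPM, after centring each gene, among 8375 genes. Ung was closest to Mcm5, of the replicative helicase (0.0517), and Sae1, of the SUMO-activating enzyme (0.0522). Xrcc6 was closest to Nup85, of the nuclear pore (0.0431), and Pola2, of DNA polymerase alpha (0.0532). Msh6 was closest to Agfg2 (0.0459) and the mitochondrial ribosomal protein gene Mrpl49 (0.0614). These are descriptions of 8 libraries that share genotype, batch and sex.

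Markers of B cells and of other cells were also compared. The 6 B cell markers summed to 4760 to 5510 TPM in control and 5010 to 5070 TPM in 4A1 KO, most of it from Fcer2a, which rose by 0.30 on the log2 scale (edgeR adjusted p = 0.00116). Of the other B cell markers, Cd79b, Cd22 and Cd79a were called lower, with log2 fold changes of -0.89, -0.76 and -0.67, and Pax5 fell by 0.23 (adjusted p = 0.00229) without being called, while Ms4a1 was at 0.07 (adjusted p = 0.251). The 5 plasmablast markers summed to 215 to 330 TPM in control and 196 to 261 TPM in 4A1 KO, most of it from Irf4 (log2 fold change -0.15, adjusted p = 0.101). Of the 4 that were tested, 2 were called lower, where 13.7% of all tested genes were. These were Sdc1, which fell by 1.22 (adjusted p = 8.47e-05), and Prdm1, which fell by 0.64 (adjusted p = 0.00114). Jchain went the other way, at 0.21 (adjusted p = 0.692).

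The study removed the feeder cells with antibody and beads before RNA was isolated. The 9 fibroblast markers, which would mark feeder cells that remained, summed to 3.2 to 14.6 TPM in control and 4.97 to 9.52 TPM in 4A1 KO. Postn and Lum had 0 reads and Dcn at most 1, whereas Col1a1 reached 1107 reads in a library. Of the 5 that were tested, Fn1 was called higher (log2 fold change 0.86, edgeR adjusted p = 0.0215) and Col3a1, with at most 38 reads, lower (-1.57, adjusted p = 0.0437). The 7 myeloid markers summed to 10.5 to 15.2 TPM in control and 15.6 to 18.4 TPM in 4A1 KO, without overlap. Of the 4 that were tested, Adgre1 was called higher (0.62, edgeR adjusted p = 0.00687), where 11.6% of all tested genes were. Cd68 was higher by 0.41 (adjusted p = 0.0235) without being called. Lyz2, at 0.65 (adjusted p = 0.211), did not pass, and Itgam went the other way, at -0.17 (adjusted p = 0.838). S100a8 and S100a9 were at 0. The 6 T cell markers summed to at most 0.245 TPM. The part of these markers in the differences of the 8 genes was not tested.

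The targeted gene Eif4a1 stood at 815, 746, 941 and 889 CPM in controls 1 to 4, against 593, 559, 642 and 689 CPM in 4A1 KO, lower in every library of 4A1 KO (log2 fold change -0.44, edgeR adjusted p = 0.000115). The floxed allele removes only some exons and the counts cover the whole gene, so these values do not measure how complete the deletion was.

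Between 31727557 and 43210858 reads were counted on genes per library, with the lowest total in 4A1 KO replicate 1. Each of the 8 genes had between 1242 and 14678 reads in every library. Exons of Apex1, Msh6, Mad2l2, Trp53bp1, Xrcc6 and Ung overlap genes on the opposite strand, and the counting took strand into account, while the sources used here do not give the strand setting behind the TPM.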

How the data were processed

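RNA from 8 libraries (4 control, 4 4A1 KO) was analysed, and genotype, sex, batch and replicate number came from the sample labels. The authors trimmed reads with Trim Galore 0.6.6, aligned them to GRCm39 with HISAT2 2.1.0 and deposited raw counts made in Seqmonk over merged isoforms, using strand. They also deposited TPM from StringTie 2.1.1. How reads mapping to several places were counted is not given in the sources used here. No per-sample column was left unused, and the proteome was not analysed here.

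Counts were fitted in R 4.3.3 with edgeR 4.0.16 (filterByExpr, TMM, quasi-likelihood test, batch and sex as covariates, replicates 2 to 4), with two-sided p-values adjusted by Benjamini-Hochberg over the 14218 genes tested. TPM were fitted with limma 3.58.1 as log2(TPM + 1) over the 12976 genes that averaged 1 TPM or more. Totals were 31727557 to 43210858 counts per library, and SDs are between libraries. The members and gene lists were chosen with earlier results of these data known. The genes named are the 8 members, the called genes of the 6 lists and the 3 genes with the smallest adjusted p among the non-members of each list, the 2 with the smallest adjusted p of the S phase and G2/M lists, the 2 genes most like each called member, and Eif4a1. The shieldin genes, Lig4, Xrcc4, Nhej1 and the marker genes were named after their values were seen.

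Same-numbered libraries share batch and sex in their labels. Their deviations from the genotype means correlated across genes at r = 0.594, 0.502 and 0.432, against -0.435 to 0.019 for other pairs. Deviations from a genotype mean sum to 0, so positive values in same-numbered pairs push the other pairs below 0 on average. The other pairs are therefore not an independent baseline. Promoters were read from GRCm39 at GENCODE M39 canonical start sites, and similar transcripts were found with blastn 2.17.0. In data simulated for the comparison of the 6 libraries, edgeR recovered 199 of 200 genes with a log2 change of 1 among 14076 genes, with 13 false calls. In the same way limma recovered 200 of 200 among 12976 with 5 false calls. The simulated data had the same spread setting for every gene and no batch or sex effect. They do not show how well changes near the threshold on fold change are called. Alternatives were scaling by upper quartile or by DESeq2's size factors, the DESeq2 1.42.0 test (unshrunken or shrunken), filters on low values, a TPM pseudocount of 0.1, a model without the replicate block, inclusion of all 8 libraries, omission of each replicate in turn and edgeR's glmTreat. The partner ratios and, over all 8 libraries, the batch and sex differences and the replicate block were added after the data had been seen. The covariates of the main fit and the interaction terms were planned. Some genes of these lists and 1 ratio were left out and are not reported here, and the ratio p-values were adjusted over all 5 ratios computed.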

Additional observations from a re-analysis of the deposited data

Results flagged for a closer look

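In TPM, control replicate 2 of Mad2l2 stood apart from the other 3 controls. It was at 62 TPM, the others between 68.8 and 69.5 TPM, and the gap was 0.905 of the range of the group, above Dixon's 95% critical value for 4 libraries. Of 32 such groups tested, 1.6 would pass by chance at 5%. In CPM control replicate 2 was also the lowest control of Mad2l2, at 36.5, but next to control replicate 4 at 37.5.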

How the results depend on the processing

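Ung, Msh6 and Xrcc6 were called lower under all 13 alternatives to the fit of counts, so the number of members called was 3 in each, including all leave-one-out fits. The log2 fold change ranged from -0.74 to -0.59 for Ung, from -0.90 to -0.80 for Msh6 and from -0.75 to -0.60 for Xrcc6. Mad2l2 changed sign, to 0.01 in counts under upper quartile scaling, to 0.06 in counts without replicate 3 and to 0.04 in TPM without replicate 3, and over the fits that left out a replicate it ranged from -0.07 to 0.06 in counts and from -0.09 to 0.04 in TPM. Of all genes, 3596 were called, 1627 with glmTreat, which tests against the fold threshold itself, and 3083 to 3821 when a replicate was left out. The pathway lists had 18 called genes, 13 with glmTreat (without Smug1, Mbd4, Pms1, Rpa3 and Poll) and 17 to 19 without a replicate. In TPM 4 members passed, and 3 to 5 when a replicate was left out. Without the replicate block, 3000 genes and 3 members were called, and in the 6 libraries the pairing moved, among the members, only the adjusted p of Rif1 across 0.05, to 0.209. In TPM Rif1 passed with all 8 libraries (0.27, limma adjusted p = 0.0401) and without replicate 4 (0.42, adjusted p = 0.0368). The median log2 fold change of all genes stayed between 0 and 0.03 under every scaling. Smug1, at 81 to 246 reads per library, had the fewest reads among the pathway genes called.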
